A study of Homo sapiens with 9 samples.

Results

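Kinesins are motor proteins that use ATP to move along microtubules or to take them apart, and 42 of the 26196 gene symbols in the deposited expression table were named as kinesins (KIF or KIFC with a number). The members were taken by name alone, and every listed transcript of a gene, 86 in all, was summed. From textbook knowledge 14 were grouped as mitotic, 17 as transport and 11 as other kinesins. CENPE, a kinesin of the chromosome attachment site that is not named KIF, was kept with the mitotic partner proteins.

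Messenger RNA was sequenced from HCA2, an established line of human foreskin fibroblasts, in 3 groups of 3 libraries, to compare senescent with dividing cells and senescent cells with and without surface PD-L1. The normal group was labelled proliferative. Per the labels' protocols, the senescent groups received doxorubicin, which damages DNA, at 100 nM for 24 hours, and were then held in 100 nM BI-2536, which blocks PLK1, a kinase of mitosis, and was used to remove cells that still divided, for 12 days in total. They were sorted into a PD-L1-negative and a PD-L1-positive fraction. PD-L1, the product of CD274, is a surface ligand that inhibits T cells. All groups came from 1 line cultured in DMEM with serum, and the labels name no genetic change. The normal libraries also carry the label PD-L1 positive, and no label says whether they were sorted. The treatment text also stands with the normal samples, although they are labelled proliferative. No group with doxorubicin, BI-2536 or sorting alone was analysed here, so the effects of the drugs, of senescence and of sorting cannot be told apart. The labels do not say that replicates were separate cultures, so p-values measure the spread between these libraries.

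Mitotic kinesins build the bipolar spindle, move and align chromosomes, and pull the daughter cells apart, and most are transcribed mainly in the G2 and M phases of the cell cycle. Transport kinesins carry vesicles, organelles and cilium components in cells at rest as well as in dividing ones, and many bind cargo through light chains or adaptor proteins. Many promoters of G2 and M genes carry a CHR element (TTTGAA), which is bound by the DREAM and MYB-MuvB complexes, and CCAAT boxes, which are bound by NF-Y.

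Promoter sequences from RefSeq on GRCh38.p14, covering 250 bases before to 50 bases after a start site, were matched by symbol for 34 of the 42 kinesins, with 43 promoters. TTTGAA and CCAAT were searched on both strands, overlaps between matches were allowed, and a gene was counted if any of its promoters held the motif. Of the 12 mitotic kinesins tested below, 9 held TTTGAA, 10 held CCAAT and 8 held both. Of 12 transport kinesins with a promoter, 1 held TTTGAA, 4 held CCAAT and 1, KIF5B, held both. Of 8 other kinesins, 0 held TTTGAA and 3 held CCAAT. Over all 35116 promoters in the table the shares were 15.2% for TTTGAA, 34.6% for CCAAT and 5.90% for both. These shares are per promoter and the kinesin counts are per gene, so they are not like for like. A gene with several promoters has more chances to be counted. In the mitotic kinesins TTTGAA began between 55 bases before the start (KIF23, listed as -55) and position 31 after it (KIF20B), whereas in KIF5B it began at -140. A match is a string of letters and was not tested for binding.

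The windows from 100 bases before to 20 bases after the start are shown for the 7 of the 12 tested mitotic kinesins that held both motifs inside this window, with KIF20A and KIF3B added for comparison after the matches were seen. KIF4B, a mitotic kinesin not tested below, also held both there and is not shown. KIF20A held CCAAT without TTTGAA, and KIF3B is a transport kinesin with 1 CCAAT. Each sequence runs 5′ to 3′ on the gene's own strand, and capitals mark CCAAT or its complement ATTGG, and TTTGAA or its complement TTCAAA.
KIF11 (chr10:92593030-92593149, plus strand): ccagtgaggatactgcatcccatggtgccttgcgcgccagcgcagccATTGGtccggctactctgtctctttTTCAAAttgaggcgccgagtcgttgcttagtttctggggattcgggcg
KIF14 (chr1:200620732-200620851, minus strand): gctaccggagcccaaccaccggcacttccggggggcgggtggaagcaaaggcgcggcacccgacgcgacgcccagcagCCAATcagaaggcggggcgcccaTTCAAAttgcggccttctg
KIF18A (chr11:28108137-28108256, minus strand): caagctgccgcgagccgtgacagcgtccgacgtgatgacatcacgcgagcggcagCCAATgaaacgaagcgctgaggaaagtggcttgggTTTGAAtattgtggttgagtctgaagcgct
KIF18B (chr17:44947754-44947873, minus strand): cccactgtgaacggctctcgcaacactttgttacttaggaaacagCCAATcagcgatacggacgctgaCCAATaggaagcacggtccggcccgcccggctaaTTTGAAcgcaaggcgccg
KIF20A (chr5:138179012-138179131, plus strand): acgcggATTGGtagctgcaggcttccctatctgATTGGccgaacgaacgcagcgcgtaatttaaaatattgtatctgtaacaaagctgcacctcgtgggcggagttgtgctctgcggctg
KIF23 (chr15:69414249-69414368, plus strand): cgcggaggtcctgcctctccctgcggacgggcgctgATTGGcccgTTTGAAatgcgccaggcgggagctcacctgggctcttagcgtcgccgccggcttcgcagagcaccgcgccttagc
KIF3B (chr20:32277551-32277670, plus strand): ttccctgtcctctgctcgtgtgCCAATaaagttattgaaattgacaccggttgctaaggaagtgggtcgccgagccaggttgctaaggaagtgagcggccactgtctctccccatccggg
KIF4A (chrX:70290004-70290123, plus strand): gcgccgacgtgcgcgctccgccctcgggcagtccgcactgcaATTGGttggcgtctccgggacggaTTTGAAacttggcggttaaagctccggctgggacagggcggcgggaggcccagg
KIFC1 (chr6:33391723-33391842, plus strand): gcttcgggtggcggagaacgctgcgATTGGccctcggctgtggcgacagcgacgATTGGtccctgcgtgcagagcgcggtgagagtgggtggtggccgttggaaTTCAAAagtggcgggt

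Expression was given as FPKM (fragments per kilobase of transcript, scaled to the library's total), which corrects for transcript length, so levels of different genes can be set side by side. Depth, estimated from the steps between low FPKM values, lay between 11600000 and 17700000 fragments in each library (median 14300000). Among 10 dermal fibroblast markers the median FPKM was 294 in normal, 650 in the PD-L1-negative and 564 in the PD-L1-positive libraries. Keratinocyte and endothelial markers reached at most 0.0866 FPKM in a group mean. The 4 melanocyte markers summed to 0.373 to 0.508 FPKM in normal and 1.10 to 2.36 in senescent libraries, almost all of it PMEL, with TYR at 0 in every normal and PD-L1-negative library. The 4 leukocyte markers summed to 32.4 to 34.9 FPKM in normal and 53.9 to 67.5 in senescent libraries, almost all of it CD68, a lysosomal protein, with CD3E at 0 in every normal library. The 5 neuron markers summed to 66.9 to 96.3 FPKM in normal and 67.4 to 107 in senescent libraries, almost all of it TUBB3. The part of such cells in the kinesin results was not tested. CD274 was 6.23, 3.48 and 2.89 FPKM in normal, 0.677, 0.708 and 0.909 in the PD-L1-negative and 1.23, 1.32 and 1.38 in the PD-L1-positive libraries, so the sorted fractions did not overlap and both were below normal. MKI67, expressed by dividing cells, reached 61.3, 33.4 and 12.7 FPKM in normal replicates 1, 2 and 3 and lay between 1.64 and 6.09 in the senescent libraries.

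A total of 12763 genes with a mean of at least 0.5 FPKM over the 9 libraries were tested, among them 30 of the 42 kinesins. These were 12 of 14 mitotic, 12 of 17 transport and 6 of 11 other kinesins. Among mitotic members, KIF2B, a microtubule depolymerase, was listed at 0 in every library, and KIF4B, a near-identical copy of KIF4A, did not exceed 0.0301 FPKM. The 5 transport kinesins not tested were KIF13B, KIF5A, KIF21B, KIF5C and KIF1A, with at most 0.618 FPKM in any library. KIF5A and KIF1A are neuronal motors. The 5 other kinesins not tested were KIF6, KIF26A, KIF25, KIF12 and KIF19, with at most 0.316 FPKM in any library.

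Mitotic kinesins were lower in senescent than in normal cells as a group. All 12 tested members fell, with a median log2 difference of -2.01 and a range from -2.65 (KIF20A) to -0.96 (KIF18A), where every log2 difference is on the log2(FPKM + 0.5) scale from a limma fit over all genes. Over all genes tested, 29.9% were called lower at an adjusted p (limma, Benjamini-Hochberg over 12763 genes) under 0.05 and the median difference was -0.04. KIF23, KIF20A and KIF22 had the highest mean FPKM of the mitotic kinesins. In 11 of the 12 every senescent library was below every normal library, against 27.3% of all genes. In bulk RNA fewer cells that express a gene and less RNA per cell cannot be told apart.

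**Figure D1:**
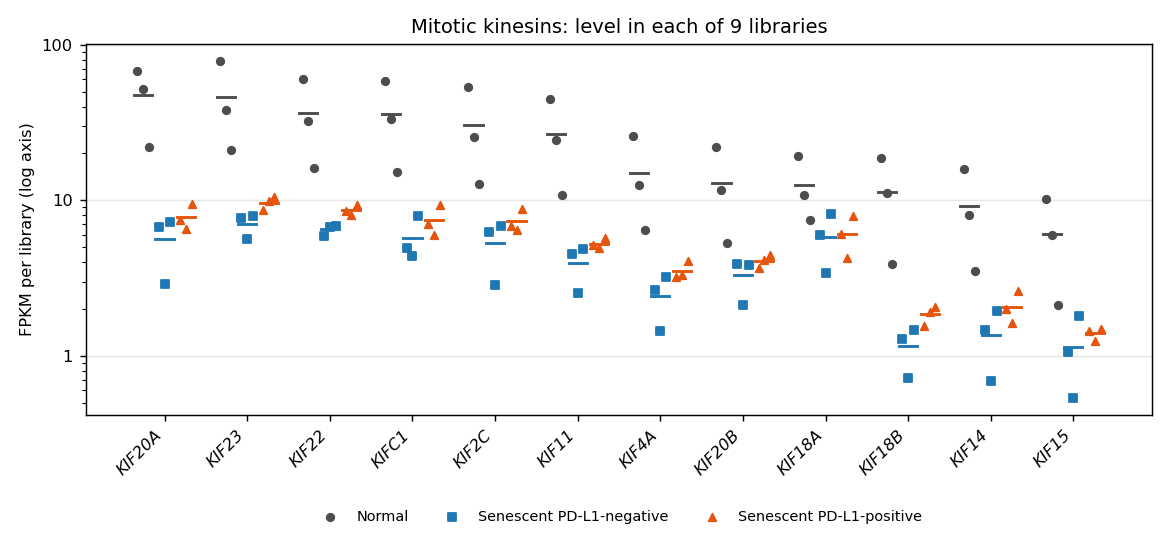
FPKM on a log axis for the 12 tested mitotic kinesins, with 1 point per library, replicates 1 to 3 from left to right in each group, and a bar at each group's mean of 3 libraries. Senescent points lie below normal points in 11 of the 12 genes, and KIF18A is the exception; normal replicate 1 is the highest normal point in 12 of 12.

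Among motors that shape the spindle, KIF11 (Eg5), which slides antiparallel microtubules apart to keep the poles separate, was 44.9, 24.3 and 10.8 FPKM in the normal replicates, 4.54, 2.53 and 4.83 in the PD-L1-negative and 5.13, 4.9 and 5.68 in the PD-L1-positive ones. The lowest normal library stood above the highest senescent one, and the log2 difference was -2.23 (SE 0.37, limma adjusted p = 0.00093). KIF15, which can take over part of KIF11's work, was 10.1, 6.01 and 2.13 FPKM in normal, 1.07, 0.535 and 1.79 in the PD-L1-negative and 1.45, 1.25 and 1.49 in the PD-L1-positive libraries, again without overlap, and fell by 1.72 on the log2 scale (limma adjusted p = 0.00512). KIFC1 (HSET), a minus-end motor that gathers microtubules at the poles, was 58.6, 33.2 and 15.3 FPKM in normal, 4.96, 4.35 and 7.88 in the PD-L1-negative and 7.05, 5.97 and 9.29 in the PD-L1-positive libraries. Its normal and senescent libraries did not overlap and its log2 difference was -2.20 (SE 0.36, limma adjusted p = 0.000902).

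Among motors that act on chromosomes and microtubule ends, KIF22 (Kid), which pushes chromosome arms away from the poles, was 59.9, 32.4 and 16.2 FPKM in normal, 5.88, 6.78 and 6.83 in the PD-L1-negative and 8.49, 8.05 and 9.29 in the PD-L1-positive libraries. KIF2C (MCAK), which takes microtubules apart at centromeres, was 53.5, 25.4 and 12.7 FPKM in normal, 6.28, 2.86 and 6.87 in the negative and 6.82, 6.41 and 8.84 in the positive libraries. Both were lower in every senescent library, with log2 differences of -2.01 (SE 0.31, limma adjusted p = 0.000689) for KIF22 and -2.01 (SE 0.40, limma adjusted p = 0.00254) for KIF2C. KIF18B, which shortens astral microtubules, was 18.8, 11.1 and 3.91 FPKM in normal, 1.29, 0.716 and 1.47 in the PD-L1-negative and 1.56, 1.93 and 2.07 in the PD-L1-positive libraries. This was the second largest fall of the family on the log2 scale, -2.35 (SE 0.39, limma adjusted p = 0.000907). KIF4A, a chromosome-arm motor that also acts in the central spindle, was 25.9, 12.6 and 6.4 FPKM in normal, 2.65, 1.43 and 3.23 in the negative and 3.19, 3.29 and 4.05 in the positive libraries without overlap, with a log2 difference of -1.99 (SE 0.37, limma adjusted p = 0.00166). Its copy KIF4B did not exceed 0.0301 FPKM in any library. How reads shared by KIF4A and KIF4B were assigned was not tested, so the value of KIF4A is less certain.

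KIF18A, which damps the movement of chromosomes at the spindle's middle, changed least among the mitotic members. It was 19.2, 10.8 and 7.49 FPKM in normal, 5.95, 3.41 and 8.17 in the PD-L1-negative and 6.1, 4.25 and 7.93 in the PD-L1-positive libraries, so normal replicate 3 lay below 2 senescent libraries. The log2 difference was -0.96 (SE 0.32, limma adjusted p = 0.0308). That call was lost without normal replicate 1 (-0.61, limma adjusted p = 0.134), normal replicate 2 (0.0691), PD-L1-negative replicate 2 (0.0563), PD-L1-positive replicate 1 (0.0504) or PD-L1-positive replicate 2 (0.0605), with no filter on low values (0.0571) and with sample weights (0.0918).

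Motors of cell division's last steps included the largest fall of the family. KIF20A (MKLP2), which carries the Aurora B complex to the central spindle, was 67.3, 52.1 and 22 FPKM in normal, 6.77, 2.88 and 7.26 in the PD-L1-negative and 7.5, 6.54 and 9.41 in the PD-L1-positive libraries. Its mean was 7.01-fold lower in senescent cells and its log2 difference was -2.65 (SE 0.36, limma adjusted p = 0.000358). By the ratio of mean FPKM the fall of KIF18B was larger, at 7.48-fold. KIF23 (MKLP1), the motor subunit of centralspindlin, had the second highest mean of the mitotic kinesins in normal cells. It was 78.7, 38 and 21.1 FPKM in normal, 7.73, 5.64 and 7.87 in the negative and 8.63, 9.86 and 10.5 in the positive libraries, without overlap of normal and senescent libraries, and its log2 difference was -2.21 (SE 0.33, limma adjusted p = 0.000519). KIF14, which works with citron kinase at the midbody, was 15.9, 8.0 and 3.52 FPKM in normal, 1.46, 0.692 and 1.95 in the PD-L1-negative and 1.99, 1.64 and 2.6 in the PD-L1-positive libraries. KIF20B, needed for the final cut between daughter cells, was 21.9, 11.7 and 5.32 FPKM in normal, 3.92, 2.14 and 3.81 in the negative and 3.66, 4.12 and 4.47 in the positive libraries. Neither gene's normal and senescent libraries overlapped, and the log2 differences were -1.95 (SE 0.39, limma adjusted p = 0.00265) for KIF14 and -1.51 (SE 0.36, limma adjusted p = 0.0061) for KIF20B.

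The normal libraries were not alike in these genes. Replicate 1 was the highest and replicate 3 the lowest normal library in 12 of 12 mitotic kinesins, and replicate 1 exceeded replicate 3 by 2.56-fold to 4.80-fold, beside 4.82-fold for MKI67. CDKN1A, the gene of the inhibitor p21 that stops the cell cycle, ran the other way at 109.9, 214 and 311 FPKM. The part of this spread in the result was not tested beyond leaving libraries out. The median log2 difference of the 12 was -1.53 without normal replicate 1 and -2.5 without normal replicate 3. A fit with normal replicate 3 as the only normal library gave a median of -1.05. That choice was made after the library's low cycling markers were seen, and it assumes that this library varies like the other groups. Fewer of the 12 were called lower in that fit, as were fewer of all genes. KIF2C, KIF14, KIF15, KIF18A and KIF20B were no longer called.

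Set against normal cells separately, with the same 3 normal libraries in both comparisons, each senescent fraction had 11 of 12 mitotic kinesins lower. The median log2 difference was -2.25 for PD-L1-negative cells, where 26.6% of all genes were called lower, and -1.79 for PD-L1-positive cells, where 26.3% were. KIF18A was the member not called, at -1.01 (limma adjusted p = 0.0503) and -0.91 (limma adjusted p = 0.0702). For PD-L1-positive cells the calls of KIF15 and KIF20B each depended on single libraries. KIF15 lost its call without normal replicate 1 (limma adjusted p = 0.0519), normal replicate 2 (0.0601) or PD-L1-positive replicate 2 (0.0544). KIF20B went from -1.35 to -0.88 (limma adjusted p = 0.0530) without normal replicate 1, and also lost its call without normal replicate 2 (0.0641), PD-L1-positive replicate 1 (0.0661) or PD-L1-positive replicate 2 (0.0572). With normal replicate 3 as the only normal library fewer mitotic members were called lower in each fraction, as were fewer of all genes.

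The partner proteins of these motors were lower too. All 18 partners tested fell, with a median log2 difference of -2.01, and all 9 cycling markers fell, with a median of -2.17, where 29.9% of all genes were called lower. Against normal cells 18 of 18 partners were lower in PD-L1-negative cells (26.6% of all genes) and 16 of 18 in PD-L1-positive cells (26.3%). The 2 not called were AURKA, a kinase of spindle poles, at -0.83 (limma adjusted p = 0.1002), and CIT, the citron kinase bound by KIF14, at -0.86 (limma adjusted p = 0.109). The 3 largest falls among partners were PLK1, the mitotic kinase that BI-2536 inhibits, at -2.73 (SE 0.41, limma adjusted p = 0.00059), AURKB, the kinase that KIF20A relocates, at -2.57 (SE 0.35, limma adjusted p = 0.000349), and CEP55, a midbody protein, at -2.54 (SE 0.38, limma adjusted p = 0.000562). CENPE, the chromosome attachment kinesin, was 25.1, 11 and 5.0 FPKM in normal, 3.16, 1.28 and 3.18 in the PD-L1-negative and 3.57, 3.22 and 4.11 in the PD-L1-positive libraries. No senescent library of CENPE reached a normal one, and its log2 difference was -1.77 (SE 0.42, limma adjusted p = 0.0063).

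**Figure D2:**
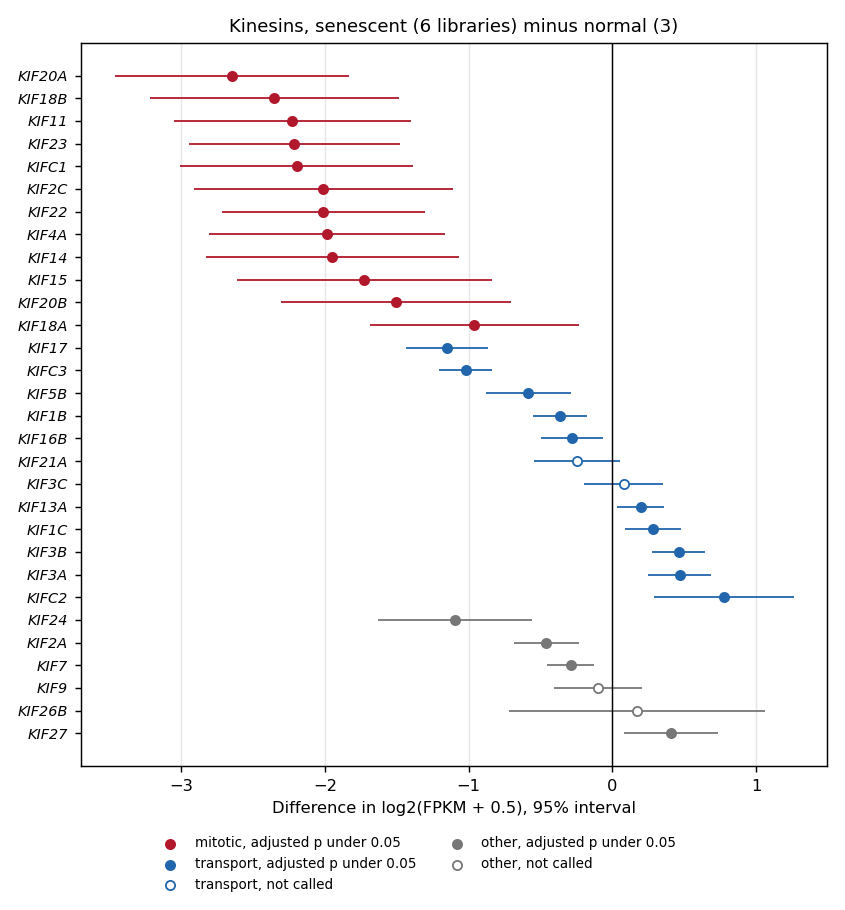
Difference in log2(FPKM + 0.5) between 6 senescent and 3 normal libraries for the 30 tested kinesins by role, with 95% intervals from limma; filled points passed an adjusted p of 0.05. All 12 mitotic kinesins lie left of 0, from -2.65 to -0.96, while transport kinesins lie on both sides, from -1.15 to 0.78.

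Transport kinesins did not move in 1 direction. Of the 12 tested, 5 were higher and 5 lower in senescent cells, with a median log2 difference of -0.08, where 23.9% of all genes were called higher and 29.9% lower. The sign of that median depended on the filter: it was 0.14 over the 10 members with a mean of at least 1 FPKM and 0.06 over all 17 with no filter on low values. Every senescent library was above every normal one in 4, against 21.5% of all genes, and below in 5, against 27.3%. The highest mean FPKM over the 9 libraries were those of KIF5B, KIF1C and KIF13A. Against normal replicate 3 alone fewer transport kinesins were called in each direction, as were fewer of all genes. With sample weights 2 transport kinesins were called higher. The estimate of those weights stopped before it reached its convergence tolerance, so calls lost with sample weights are less certain.

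**Figure D3:**
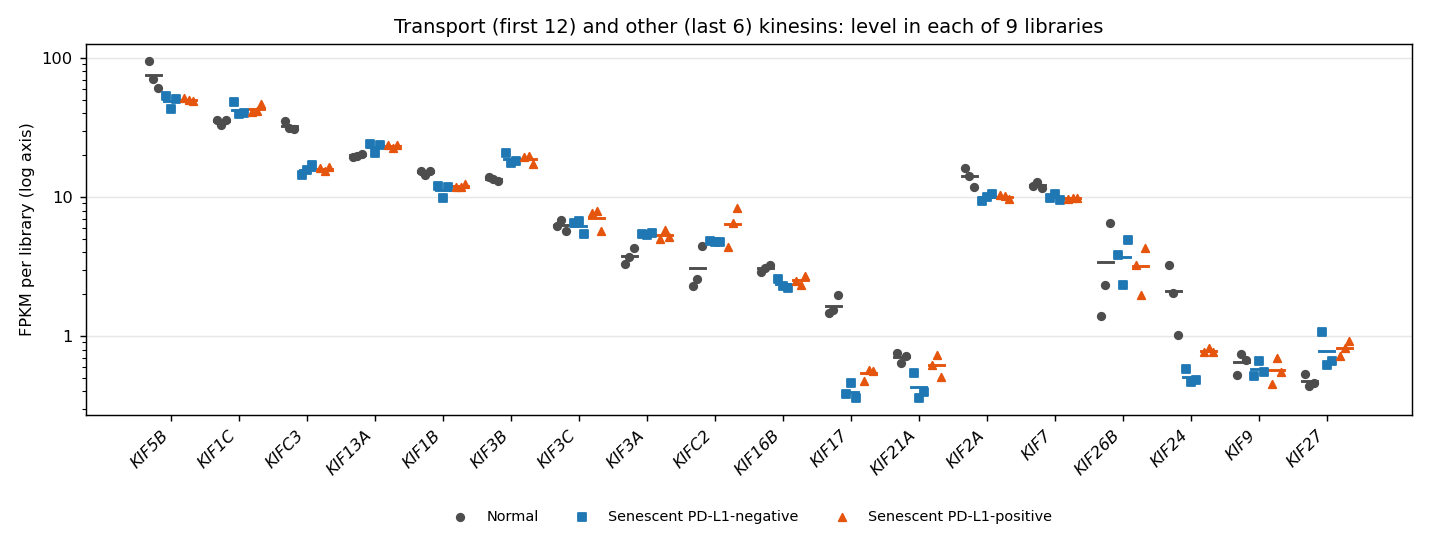
FPKM on a log axis for 12 transport (left) and 6 other kinesins (right), with 1 point per library, replicates 1 to 3 from left to right in each group, and a bar at each group's mean of 3 libraries. KIFC3 and KIF17 are lower and KIF3B is higher in all 6 senescent libraries than in all normal ones.

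Among the members that fell, KIF5B, the ubiquitous heavy chain of conventional kinesin, had the highest level of any kinesin. It was 95.4, 70.2 and 61 FPKM in normal, 53, 42.9 and 50.7 in the PD-L1-negative and 51.4, 49.7 and 49 in the PD-L1-positive libraries, so normal replicate 1 stood apart and no senescent library reached a normal one. Its log2 difference was -0.58 (SE 0.13, limma adjusted p = 0.00498), and -0.30 with limma adjusted p = 0.10 against normal replicate 3 alone. KIFC3, a minus-end motor linked to cell junctions, was 35.4, 31.5 and 30.9 FPKM in normal, 14.4, 15.5 and 16.9 in the negative and 16.3, 15.3 and 16.5 in the positive libraries. The KIFC3 replicates lay close together in each group, and the log2 difference of -1.02 (SE 0.081, limma adjusted p = 2.86e-05) had the smallest p of the family. KIF17, a motor of cilia and dendrites, was 1.47, 1.54 and 1.97 FPKM in normal, 0.384, 0.456 and 0.358 in the PD-L1-negative and 0.477, 0.572 and 0.565 in the PD-L1-positive libraries. At this low level its normal and senescent libraries were still apart, with a log2 difference of -1.15 (SE 0.13, limma adjusted p = 0.00012). The mean of KIF17 was 1.66 FPKM in normal and 0.469 in senescent libraries, so the normal group carried it over the 0.5 FPKM filter.

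KIF1B, which carries mitochondria and vesicle precursors, was 15.3, 14.4 and 15.4 FPKM in normal, 12, 9.86 and 11.8 in the PD-L1-negative and 11.8, 11.8 and 12.4 in the PD-L1-positive libraries. It did not overlap and its log2 difference was -0.37 (SE 0.083, limma adjusted p = 0.00499); its call in PD-L1-positive cells alone was lost without PD-L1-positive replicate 1 (limma adjusted p = 0.0682) or 2 (0.0702). KIF16B, which moves early endosomes outward, was 2.89, 3.09 and 3.23 FPKM in normal, 2.56, 2.3 and 2.21 in the negative and 2.5, 2.35 and 2.7 in the positive libraries without overlap, and its log2 difference was -0.28 (SE 0.096, limma adjusted p = 0.0315). The KIF16B call was lost without normal replicate 2 (0.0915), normal replicate 3 (0.0827), PD-L1-negative replicate 3 (0.0662), PD-L1-positive replicate 1 (0.0594) or PD-L1-positive replicate 2 (0.0698), and with no filter on low values (0.0634), median-of-ratios scaling (0.0584) and sample weights (0.215), all limma adjusted p.

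Among the members that rose were both motor subunits of heterotrimeric kinesin-2, which carries cargo outward along the cilium. KIF3B was 14, 13.4 and 13.1 FPKM in normal, 20.8, 17.7 and 18.1 in the PD-L1-negative and 19.4, 19.6 and 17.4 in the PD-L1-positive libraries. KIF3A was 3.29, 3.73 and 4.28 FPKM in normal, 5.42, 5.36 and 5.49 in the negative and 5.01, 5.8 and 5.2 in the positive libraries. Every senescent library was above every normal one for both, with log2 differences of 0.46 (SE 0.081, limma adjusted p = 0.00128) for KIF3B and 0.47 (SE 0.098, limma adjusted p = 0.00326) for KIF3A. KIFAP3, the non-motor subunit of the same complex, was 11.2, 11.8 and 13 FPKM in normal, 16.3, 18.3 and 17.3 in the PD-L1-negative and 17.3, 16.9 and 14.9 in the PD-L1-positive libraries, with a log2 difference of 0.47 (SE 0.084, limma adjusted p = 0.00141). KIF3C, an alternative partner of KIF3A, lay between 5.46 and 7.92 FPKM in all libraries with overlapping groups, and its 95% interval ran from -0.19 to 0.35. Against normal replicate 3 alone KIF3A was 0.30 higher with limma adjusted p = 0.0966.

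KIF1C, a vesicle motor, was 36, 33.1 and 35.9 FPKM in normal, 47.9, 39.4 and 39.9 in the PD-L1-negative and 41.2, 41.7 and 46.4 in the PD-L1-positive libraries. All senescent libraries were above the normal ones, and the log2 difference was 0.28 (SE 0.086, limma adjusted p = 0.0197). The KIF1C call was lost without normal replicate 2 (limma adjusted p = 0.0848) and with sample weights (0.173). KIF13A, which moves recycling endosomes, was 19.5, 19.8 and 20.5 FPKM in normal, 23.9, 20.7 and 23.8 in the negative and 23.5, 22.7 and 23.7 in the positive libraries without overlap, with a log2 difference of 0.20 (SE 0.073, limma adjusted p = 0.0419). That small rise of KIF13A was called in neither fraction alone and lost its call without normal replicate 1 (0.0981) or 2 (0.111), PD-L1-negative replicate 1 (0.0914) or 3 (0.0865), or PD-L1-positive replicate 1 (0.0832), 2 (0.0633) or 3 (0.0703), with sample weights (0.121), and without the intensity trend (0.0581), all limma adjusted p.

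KIFC2, a minus-end motor best known from neurons of mice, had the largest rise on the log2 scale. It was 2.29, 2.56 and 4.42 FPKM in normal, 4.82, 4.75 and 4.75 in the PD-L1-negative and 4.35, 6.55 and 8.37 in the PD-L1-positive libraries. Normal replicate 3 lay above PD-L1-positive replicate 1, so the groups overlapped, and PD-L1-positive replicate 3 was the highest. The log2 difference was 0.78 (SE 0.22, limma adjusted p = 0.0132), and the call was lost without normal replicate 1 (limma adjusted p = 0.0569) or 2 (0.0607), with sample weights (0.168), and against normal replicate 3 alone (0.466). KIF21A, which restrains microtubule growth at the cell edge, was 0.758, 0.638 and 0.722 FPKM in normal, 0.541, 0.361 and 0.396 in the negative and 0.616, 0.725 and 0.504 in the positive libraries, with overlapping groups and a log2 difference of -0.25 (SE 0.13, limma adjusted p = 0.146).

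In PD-L1-negative cells alone 3 transport kinesins were higher (21.0% of all genes) and 5 lower, and in PD-L1-positive cells alone 4 were higher (21.1% of all genes) and 4 lower; both comparisons share the normal libraries. KIF1C in PD-L1-negative cells (0.27, limma adjusted p = 0.0486) lost its call without any 1 of the 3 normal, PD-L1-negative replicate 1 or 3, or the 3 PD-L1-positive libraries, with adjusted p from 0.0510 to 0.182, and was 0.18 without PD-L1-negative replicate 1. In PD-L1-positive cells KIF1C (0.30) lost its call without normal replicate 2 (0.109) or PD-L1-positive replicate 1 (0.0592), 2 (0.0647) or 3 (0.108), all limma adjusted p. KIF16B in PD-L1-negative cells (-0.32) lost its call without normal replicate 2 or 3, PD-L1-negative replicate 2 or 3, or PD-L1-positive replicate 1 or 2, with limma adjusted p from 0.0543 to 0.117. With sample weights the limma adjusted p in PD-L1-negative cells was 0.22 for KIF16B and 0.124 for KIF1C, and in PD-L1-positive cells 0.283 for KIF1C and 0.138 for KIFC2. With quantile normalization KIF1B was not called in PD-L1-positive cells (limma adjusted p = 0.0691).

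Light chains and cargo adaptors of kinesins were also measured. Of 20 tested from a list of 23, 12 were higher and 2 lower in senescent cells, where 23.9% of all genes were called higher and 29.9% lower. The list's median log2 difference was 0.37, beside -0.04 for all genes. FEZ1, a kinesin-1 adaptor, was 12, 15 and 14.3 FPKM in normal, 30, 34.6 and 29.8 in the PD-L1-negative and 28.4, 28.8 and 27.9 in the PD-L1-positive libraries, and its log2 difference was 1.10 (SE 0.090, limma adjusted p = 3.22e-05). MAPK8IP3 (JIP3), which links kinesin-1 to vesicles, differed by 0.85 (SE 0.21, limma adjusted p = 0.00755), and its call was lost with sample weights (limma adjusted p = 0.106). FYCO1, which links late endosomes to kinesin, differed by 0.83 (SE 0.10, limma adjusted p = 0.000229). The members that fell were KLC2, a kinesin-1 light chain, at -0.49 (SE 0.10, limma adjusted p = 0.00313), and RHOT2, a mitochondrial anchor of kinesin adaptors, at -0.41 (SE 0.11, limma adjusted p = 0.0141), whose call was lost with sample weights (limma adjusted p = 0.0853). KLC1, the light chain with the highest level, was 65.5, 62.4 and 71.4 FPKM in normal, 77.3, 75.4 and 74 in the PD-L1-negative and 83.3, 79.3 and 74.5 in the PD-L1-positive libraries, and its log2 difference was 0.22 (SE 0.072, limma adjusted p = 0.0277).

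Among the 6 other kinesins tested, 3 were lower and 1 higher in senescent cells, with a median log2 difference of -0.19, where 29.9% of all genes were called lower and 23.9% higher. That median was 0.01 over all 11 with no filter on low values. KIF2A, KIF7 and KIF26B had the highest mean FPKM of these. KIF2A, a depolymerase of interphase and spindle microtubules, was 16.1, 14.2 and 11.9 FPKM in normal, 9.38, 10 and 10.6 in the PD-L1-negative and 10.3, 10.2 and 9.68 in the PD-L1-positive libraries. KIF7, which organizes the tip of the primary cilium for Hedgehog signalling, was 12.1, 12.9 and 11.5 FPKM in normal, 9.83, 10.5 and 9.56 in the negative and 9.72, 9.81 and 9.8 in the positive libraries. Neither overlapped, and the log2 differences were -0.46 (SE 0.10, limma adjusted p = 0.00401) for KIF2A and -0.29 (SE 0.073, limma adjusted p = 0.00863) for KIF7. The KIF7 call was lost with quantile normalization (limma adjusted p = 0.0607) and sample weights (0.0631). In PD-L1-negative cells alone KIF7 (-0.28) lost its call without normal replicate 2 (0.0895) or PD-L1-negative replicate 1 (0.0733) or 3 (0.0814), and in PD-L1-positive cells (-0.30) without normal replicate 2 (0.0661) or PD-L1-positive replicate 1 (0.0546) or 2 (0.0501), all limma adjusted p. Quantile normalization (0.142 and 0.0767) and sample weights (0.0753 and 0.0688) also ended the calls of KIF7 in these respective fractions.

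KIF24, a depolymerase at centrioles that restrains cilium formation, was 3.25, 2.03 and 1.02 FPKM in normal, 0.58, 0.464 and 0.485 in the PD-L1-negative and 0.767, 0.815 and 0.77 in the PD-L1-positive libraries. Its normal libraries were ordered as those of the mitotic kinesins, none overlapped a senescent one, and its log2 difference was -1.10 (SE 0.24, limma adjusted p = 0.00408). In PD-L1-positive cells alone the difference of KIF24 was -0.92, and -0.61 with limma adjusted p = 0.0537 without normal replicate 1; the call was also lost without normal replicate 2 (0.0629) or PD-L1-positive replicate 1 (0.0568), 2 (0.0527) or 3 (0.0526), and with only the libraries compared (0.0530). KIF27, a relative of KIF7 known from motile cilia of mice, was 0.529, 0.434 and 0.46 FPKM in normal, 1.07, 0.623 and 0.666 in the negative and 0.715, 0.825 and 0.917 in the positive libraries without overlap. The mean of KIF27 was 0.475 FPKM in normal and 0.802 in senescent libraries, so the senescent groups carried it over the 0.5 FPKM filter. Its log2 difference was 0.41 (SE 0.15, limma adjusted p = 0.0385), and the call was lost without normal replicate 1 (0.0615), 2 (0.115) or 3 (0.0780), PD-L1-negative replicate 1 (0.0664) or PD-L1-positive replicate 2 (0.0677) or 3 (0.0666), with quantile normalization (0.261) and with sample weights (0.231), all limma adjusted p. KIF9, of motile cilia, and KIF26B, which acts in developmental Wnt signalling, were not called. KIF9 lay between 0.455 and 0.743 FPKM with overlapping groups. KIF26B was 1.39, 2.33 and 6.55 FPKM in normal, 3.82, 2.31 and 4.95 in the PD-L1-negative and 3.25, 1.97 and 4.32 in the PD-L1-positive libraries, a wider range within normal cells than over all senescent ones. Against normal replicate 3 alone KIF2A, KIF7, KIF24 and KIF27 were not called.

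The make-up of the family's RNA differed between normal and senescent libraries. Summed mitotic kinesins were 474.7, 265.4 and 126.9 FPKM in normal replicates 1, 2 and 3, and averaged 49.5 ± 14.2 (SD, n = 3) in the PD-L1-negative and 65.1 ± 9.23 in the PD-L1-positive libraries. As a share of all kinesin FPKM they were 50.8% ± 14.4 (SD, n = 3) in normal, 19.1% ± 3.97 in the PD-L1-negative and 23.4% ± 2.24 in the PD-L1-positive libraries. The lowest normal share was 35.5% and the highest senescent share 26%, so these groups did not overlap. Transport kinesins held 42.4%, 70.7% and 67.4% in the same order. Their summed FPKM averaged 211 ± 19.4 (SD, n = 3), 180 ± 13.1 and 187 ± 2.30, so the higher share did not go with a higher sum.

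**Figure D4:**
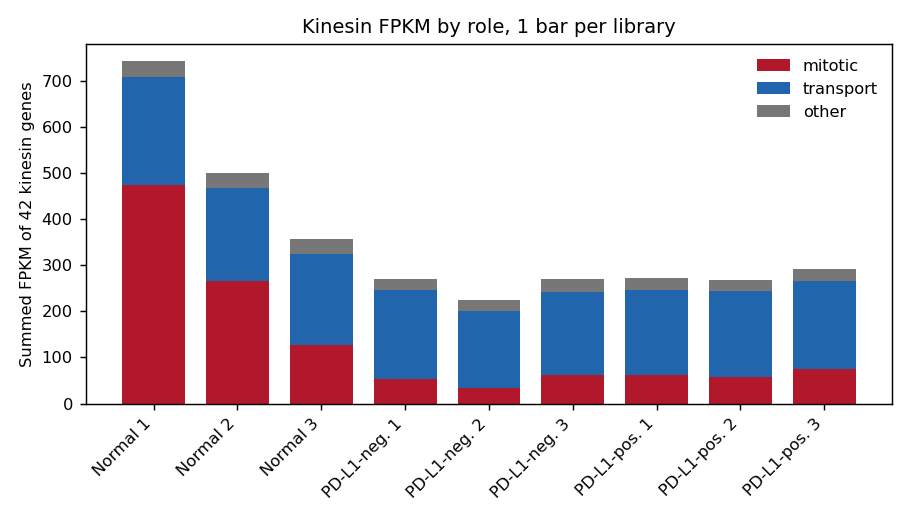
Summed FPKM of all 42 kinesin genes, stacked by role, with 1 bar per library. The mitotic part is 474.7 FPKM in normal replicate 1 and 126.9 in normal replicate 3, above all 6 senescent libraries, while the transport part differs less.

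Transcripts were compared in the 9 kinesin genes with 2 transcripts at a mean of at least 0.5 FPKM, as a description without a test. The main transcript of KIF13A (NM_001105568) held 51.5% ± 2.43 (SD, n = 3) of the gene's FPKM in normal, 59.0% ± 2.45 in the PD-L1-negative and 55.9% ± 0.966 in the PD-L1-positive libraries, and that of KIF1B (NM_183416) held 85.0% ± 3.32, 80.1% ± 1.07 and 79.1% ± 0.426 in the same order. For KIF20B, KIF3A and KIF2C the fractions went apart. NM_016195 of KIF20B held 87.9% ± 3.89 in normal, 99.998% in the PD-L1-negative and 87.5% ± 3.16 in the PD-L1-positive libraries. The gene's other transcript averaged 1.47 FPKM in normal, 4.56e-05 in the PD-L1-negative and 0.511 in the PD-L1-positive libraries. The share in PD-L1-negative cells thus rests on a transcript estimated near 0 in a gene of low level. NM_007054 of KIF3A held 54.2% ± 2.21, 42.3% ± 9.44 and 56.2% ± 8.11 in the same order. NM_006845 of KIF2C held 90.2% ± 4.48, 97.8% ± 3.86 and 78.1% ± 21.2, with 54.2% in PD-L1-positive replicate 2. In none of the 9 genes did the mean of a fraction differ from normal by more than 12.1 percentage points.

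Between the sorted fractions no kinesin passed the test. For PD-L1-positive minus PD-L1-negative cells, 0 of 30 kinesins were called and 0 had an unadjusted p under 0.05 (limma), and of all 12763 genes 0% were called and 222 had an unadjusted p under 0.05. All 12 mitotic kinesins had a positive difference, with a median log2 value of 0.42, beside 0.01 for all genes, and MKI67 was 3.97, 1.64 and 4.02 FPKM in the PD-L1-negative and 4.65, 4.49 and 6.09 in the PD-L1-positive libraries. PD-L1-negative replicate 2 was the lowest senescent library in 11 of 12 mitotic kinesins, and PD-L1-positive replicate 3 the highest in 10 of 12. Without PD-L1-negative replicate 2 the median was 0.18, with 11 of 12 positive and KIF18A at -0.22. KIF18A was also negative without PD-L1-positive replicate 3 (-0.11) and with sample weights (-0.11). The widest 95% interval among them ran from -0.54 to 1.54 (KIF2C), which includes differences of more than 1 on the log2 scale. These intervals and p-values come from the fit over all 9 libraries. They therefore also carry the spread between the normal libraries, not only that between the sorted ones.

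**Figure D5:**
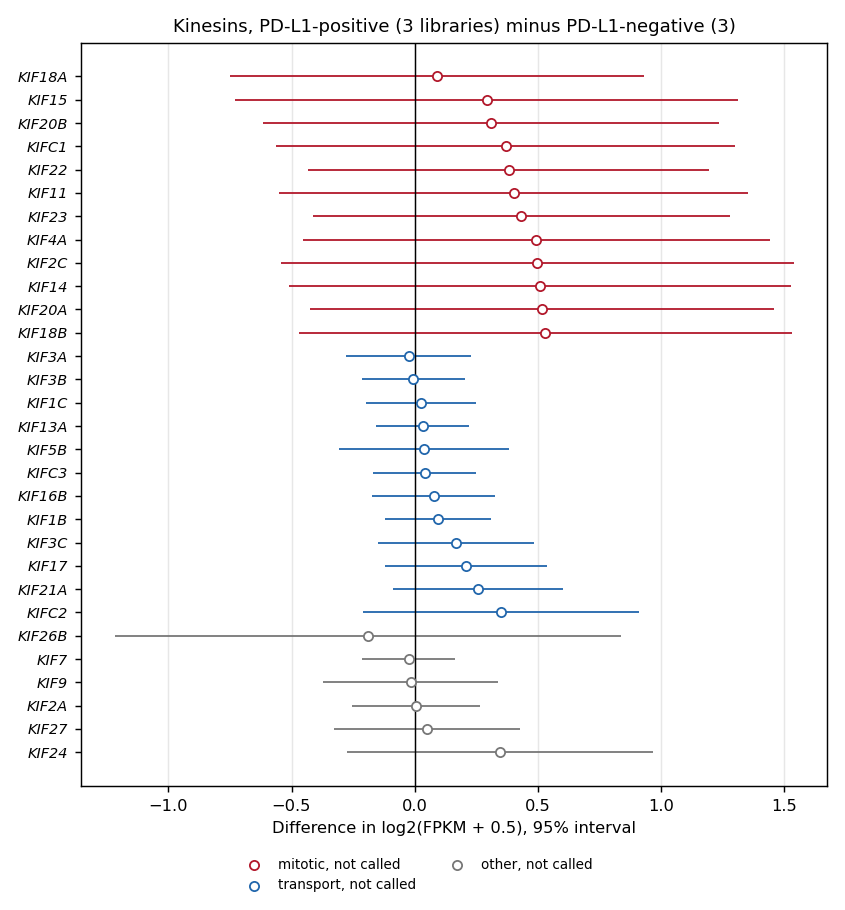
Difference in log2(FPKM + 0.5) between 3 PD-L1-positive and 3 PD-L1-negative senescent libraries for the 30 tested kinesins by role, with 95% intervals from limma. All intervals include 0, and the 12 mitotic points lie between 0.09 and 0.53. The intervals come from the fit over all 9 libraries, normal ones included.

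All PD-L1-positive libraries were above all PD-L1-negative ones in 6 of 30 kinesins (KIF11, KIF18B, KIF22, KIF23, KIF17 and KIF24), against 4.62% of all genes, and below in 0 of 30, against 4.80%. KIF17 and KIF24 were low in these libraries, at 0.358 to 0.572 and 0.464 to 0.815 FPKM. KIF17 passed the filter only through the normal group. In the limma fit KIF21A, KIF17 and KIFC2 had the smallest unadjusted p-values of the family, from 0.127 to 0.193, and their adjusted p was 1. Their log2 differences, with 95% intervals, were 0.26 (-0.09 to 0.60), 0.21 (-0.12 to 0.54) and 0.35 (-0.21 to 0.91). With only the 6 senescent libraries fitted, the differences were the same, and KIF22, KIF23, KIF24 and KIF18B had unadjusted p-values under 0.05. The smallest was that of KIF22 (0.38, limma unadjusted p = 0.00551, adjusted p = 0.996). The share of all genes with an unadjusted p under 0.05 in that fit is not given here, so these genes do not set kinesins apart.

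The authors' deposited table of a motif search (iRegulon) named 8 kinesins among the 210 target genes of its 128 motif and track entries, and 7 of these were mitotic. KIF14 was named in 83 entries, KIF24 in 57, KIF18B in 51, KIF11 in 33, KIFC1 in 24, KIF23 in 23, KIF4A in 20 and KIF22 in 13, in the authors' deposited table. An E2F factor was listed in 52 of the 128 entries of the authors' deposited table. Its input genes may have been picked from these libraries, which the file headers do not state, so it is not independent evidence of a direction.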

How the data were processed

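Messenger RNA of 9 HCA2 libraries, 3 in each of 3 groups, was analysed from 1 table of FPKM per RefSeq transcript as deposited by the authors (52741 transcripts, 26196 symbols). The genome build was hg19, and DESeq2 1.22.2, HTSeq 0.11.2 and STAR 2.5.2a are listed, per the submitters' processing notes, which do not say what each did. The program that computed FPKM is not given in the sources used here. Per the labels' protocols, polyA RNA was selected and the library kit keeps the strand. FPKM is a relative unit, so a change in a few abundant transcripts shifts all others. MIR6723 took 11.7% of the summed FPKM of PD-L1-positive replicate 3, against at most 3.56% for the highest transcript of any other library. That is not a share of fragments, since FPKM divides by length and short transcripts weigh more in the sum. A shift of other genes in that library was not tested. The authors also deposited an iRegulon table with a normalized enrichment score for each motif or track, used only as a description.

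Transcript FPKM were summed per symbol. Genes with a mean of at least 0.5 FPKM over the 9 libraries (12763) were log2-transformed after adding 0.5 FPKM and modelled in limma 3.58.1 (R 4.3.3, intensity trend on), all 9 libraries in 1 fit with 6 residual degrees of freedom, and p-values were adjusted over all genes (Benjamini-Hochberg). Calls needed an adjusted p below 0.05. Contrasts were senescent (the mean of both fractions) minus normal, each fraction minus normal, and PD-L1-positive minus PD-L1-negative. The log2(FPKM + 0.5) scale understates changes of genes near 0. FPKM is not a count, so no count test was run, and the estimated depth used 7210 genes with lengths from a GRCh38 annotation. The fit was tested on simulated data.

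The members, roles, gene lists and motifs were chosen with earlier results of these data known. Named with values were each mitotic kinesin tested, each transport or other kinesin called in senescent minus normal, the 3 kinesins with the smallest p between fractions, the 3 highest transport members, and, per partner list, the 3 largest called differences in each direction. KLC1, KIFAP3, CENPE, KIF3C, KIF9, KIF26B and the promoters for comparison were added after their values were seen. Replicate numbers were not used to pair samples in the main fit. Over deviations from group means, same-numbered libraries of the sorted fractions correlated at 0.0942, 0.223 and 0.457, and differently numbered ones between -0.307 and 0.141. Between normal and senescent libraries the range was -0.0111 to 0.132 for the same number and -0.133 to 0.104 for different numbers. Alternatives were the pseudocount, filter, scaling, trend, sample weights, a replicate block, only the libraries compared, KIF2A counted as mitotic, leaving out each library, and, added later, normal replicate 3 as the only normal library. Tables and plots used Python 3.11.15, numpy 2.4.6, pandas 2.3.3 and matplotlib 3.10.9. One marker of a context list is not reported here.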

Additional observations from a re-analysis of the deposited data

How the results depend on the processing

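No called difference of a kinesin changed sign. Of 2324 kinesin values under alternatives, 45 from 13 genes had the other sign than the full fit, none called in either, and 30 of these were between the fractions. The median of transport kinesins changed sign with the filter at a mean of 1 FPKM, from -0.08 to 0.14 in senescent and from -0.16 to 0.09 in PD-L1-negative minus normal. In PD-L1-positive minus normal it was 0.02, and -0.05 without PD-L1-positive replicate 2. Of the named genes' values under all alternatives 1683 kept their side of the threshold, 147 lost a call and 19 gained one. With each library left out in turn, mitotic kinesins called lower ranged from 11 to 12 (senescent), 11 to 12 (PD-L1-negative) and 9 to 12 (PD-L1-positive, each minus normal). Transport kinesins called higher ranged from 2 to 5 in senescent minus normal. Other kinesins called higher ranged from 0 to 1 in senescent and in PD-L1-positive minus normal, and called lower from 1 to 3 in PD-L1-positive minus normal. Between the fractions 0 to 3 genes were called higher and 0 to 1 lower, none of them a kinesin.

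With normal replicate 3 as the only normal library, mitotic kinesins called lower were 7 (senescent), 7 (PD-L1-negative) and 4 (PD-L1-positive), transport kinesins called higher were 1, 1 and 1 and lower 3, 3 and 2, and other kinesins called lower were 0, 0 and 0 and called higher in senescent minus normal 0. All genes called then were 1702 higher and 2194 lower (senescent), 1472 and 1902 (PD-L1-negative), and 1493 and 1898 (PD-L1-positive), where the full fit gave 3044 and 3821, 2674 and 3392, and 2696 and 3362.

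Sample weights, whose estimate stopped before its convergence tolerance, left 2 transport kinesins higher in senescent and 2 in PD-L1-positive minus normal, and 2003 genes higher in senescent minus normal. The 1 other kinesin called higher in senescent minus normal, KIF27, became 0 with the filter at a mean of 1 FPKM, quantile normalization, sample weights or the replicate block. For PD-L1-negative minus normal the count of other kinesins called higher was 1 without the trend, and for PD-L1-positive minus normal 1 with median-of-ratios scaling, without the trend or with only the libraries compared. Between the fractions 1 gene was higher with no filter or with weights, and 1 lower with a pseudocount of 0.1, no filter, weights or only the libraries compared. Counting KIF2A as mitotic gave a mitotic share of 27.1% in PD-L1-positive cells. The causes were not tested.

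The replicate block was a check only, since the labels do not say whether the numbers pair samples. Under it KIF27 in senescent minus normal had limma adjusted p = 0.0502. In PD-L1-negative minus normal it was 0.0373 for KIF18A and 0.0301 for KIFC2, both gained, and 0.0540 for KIF16B and 0.0503 for KIF1C, both lost. PD-L1-positive replicate 1 correlated better with PD-L1-negative replicate 2 (0.141) than with replicate 1 (0.0942). The same-numbered fractions of replicates 2 (0.223) and 3 (0.457) correlated better than any differently numbered pair of fractions. With the filter at a mean of 0.5 FPKM, 12 of the 42 kinesins were too low to be tested. How depth or the number of libraries limits the calls was not tested.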

Other observations

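Cytoplasmic dynein, the motor that moves cargo opposite to most kinesins, was measured with its partner complex dynactin. Of 21 genes 20 were tested, and 5 were higher and 5 lower in senescent than in normal cells, with a median log2 difference of 0.03. Both counts, 5 of 20, lay close to the shares over all genes, 23.9% higher and 29.9% lower. The light intermediate chains, which link dynein to its adaptors, moved in opposite directions. DYNC1LI2 was 33.5, 33.3 and 34.7 FPKM in normal, 64.3, 51.5 and 56.1 in the PD-L1-negative and 58.4, 60.0 and 63.2 in the PD-L1-positive libraries, and its log2 difference was 0.79 (SE 0.081, limma adjusted p = 8.46e-05). DYNC1LI1 was 28.2, 24.6 and 25.1 FPKM in normal, 17.4, 19.2 and 16.8 in the PD-L1-negative and 18.4, 19.6 and 16.8 in the PD-L1-positive libraries, and its log2 difference was -0.52 (SE 0.084, limma adjusted p = 0.000903). For neither gene did a senescent library overlap a normal one. Among other subunits and regulators, the light chain DYNLT3 differed by 0.65 (SE 0.087, limma adjusted p = 0.000311), the light chain DYNLL2 by 0.39 (SE 0.11, limma adjusted p = 0.0157), the light chain DYNLL1 by -0.54 (SE 0.10, limma adjusted p = 0.00213), and NDE1, a dynein regulator that also acts in mitosis, by -0.92 (SE 0.17, limma adjusted p = 0.00171). The DYNLL2 call was lost without normal replicate 2 (limma adjusted p = 0.0571) or 3 (0.05001) and with sample weights (0.0745). DYNC1H1, the heavy chain that holds the motor, was 46.4, 49.6 and 49.8 FPKM in normal, 63.2, 44.9 and 57.0 in the PD-L1-negative and 58.0, 66.0 and 61.7 in the PD-L1-positive libraries, which overlapped, and was not called (0.25 (SE 0.11, limma adjusted p = 0.0679)). Between the fractions 0 of the 20 were called (limma), 0 had an unadjusted p under 0.05, and the median log2 difference was 0.00.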
